A study of Homo sapiens with 6 samples.

Results

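SELENBP1, which encodes selenium-binding protein 1, was described across the libraries of an RNA-seq experiment in SKNMC cells. It is 1 of 22604 genes in the deposited count table and 1 of 13501 genes tested, and it was found by its symbol. It was chosen by its measured counts, as one of the genes with the largest difference between wild-type NFIB and NFIB lacking its intrinsically disordered region (IDR), so that difference is described here and not tested. SKNMC is an established Ewing sarcoma cell line, driven by the fusion protein EWS-FLI1. All cells carried a vector. They received an empty expression vector (EV), a vector for V5-tagged wild-type NFIB (NFIB WT) or a vector for V5-tagged NFIB without the IDR (NFIB ΔIDR), with 2 libraries in each group. Introduction was by infection, the libraries are not labelled as single clones, and the cells kept their own NFIB gene and EWS-FLI1. The study repeated its RNA-seq in biological duplicate, and p values measure the spread between these libraries only.

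SELENBP1 is a cytosolic enzyme, methanethiol oxidase, which turns the volatile thiol methanethiol into hydrogen sulfide, hydrogen peroxide and formaldehyde. It binds selenium but is not one of the selenoproteins, which carry selenocysteine in their chain. It is abundant in liver, colon epithelium, red blood cells and fat, and its level is often lower in carcinomas than in the tissue they come from. NFIB is a nuclear factor I transcription factor, which binds DNA through its N-terminal part, and its large IDR lies in the C-terminal part.

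In hg19 the gene lies on the minus strand of chromosome 1 from 151336780 to 151345183 in the GENCODE annotation lifted to that build. The representative transcript, SELENBP1-201, has 12 exons, and 6 of 19 annotated transcripts are protein-coding. The counts were given for a gene length of 1962 bases, without separating transcripts. No other annotated gene overlapped the span on either strand. The nearest genes were RFX5-AS1, 16276 bases away on the 3′ side of SELENBP1, and PSMB4, 26852 bases away on the 5′ side.

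The libraries held 6664231 to 8465572 counts. Of 10 listed markers of Ewing sarcoma cells, 9 were in the table, and CD99 was not. All 9 had means above 1 CPM, with NKX2-2 at 32.2 to 40.1 CPM and NR0B1 at 20.4 to 26.9 CPM over the 6 libraries. NFIB was at 176 and 145 CPM with EV, 969 and 1051 CPM with NFIB WT, and 2227 and 2332 CPM with NFIB ΔIDR. Both construct groups thus stood far above EV, but a count per gene does not tell the constructs apart. CPM here is a count scaled to its library's size with TMM factors, and 1 CPM stood for 6.67 to 8.37 counts. The 2 NFIB WT libraries differed more from each other than those of the other groups, with a SD of the log2 difference across tested genes of 0.38, against 0.28 for EV and 0.28 for NFIB ΔIDR.

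SELENBP1 RNA was near the limit of detection with EV and with NFIB ΔIDR, and was well above it with NFIB WT. The raw counts were 7 and 3 in the EV libraries. They were 56 and 61 in the NFIB WT libraries, and 4 and 2 in the NFIB ΔIDR libraries. Both NFIB WT libraries lay above the other 4, whose counts overlapped between EV and NFIB ΔIDR. Of all genes tested, 14.2% had both NFIB WT libraries above the other 4, so that separation by itself is not rare.

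Scaled to depth, SELENBP1 was at 0.955 and 0.358 CPM with EV (0.657 ± 0.422 CPM, SD, n = 2). It was at 8.40 and 7.86 CPM with NFIB WT (8.13 ± 0.384 CPM) and at 0.541 and 0.295 CPM with NFIB ΔIDR (0.418 ± 0.174 CPM). In order of level, NFIB WT stood apart, and EV and NFIB ΔIDR were neighbours whose libraries overlapped. The EV libraries differed 2.67-fold from each other and the NFIB ΔIDR libraries 1.83-fold, whereas the NFIB WT libraries differed 1.07-fold.

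**Figure D1:**
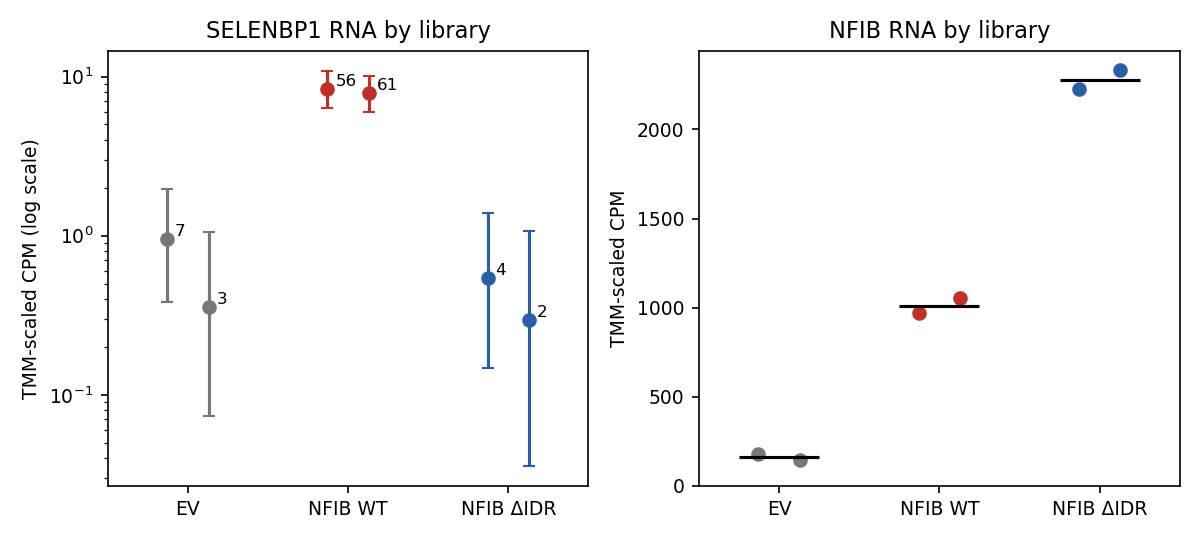
SELENBP1 (left, log axis) and NFIB (right, linear axis) in TMM-scaled CPM for the 2 libraries of each group. On the left, bars are exact 95% Poisson intervals and the number beside a point is its raw count. On the right, lines are group means. SELENBP1 is at 7.86 CPM or more with NFIB WT and below 1 CPM in the other 4 libraries, while NFIB is highest with NFIB ΔIDR.

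Counting error alone gave wide limits to the low values. The exact 95% Poisson interval ran from 0.384 to 1.97 CPM and from 0.0739 to 1.05 CPM in the EV libraries, and from 0.147 to 1.39 CPM and 0.0358 to 1.07 CPM in those with NFIB ΔIDR. The intervals of the 2 EV libraries thus overlapped despite their 2.67-fold difference. With NFIB WT the intervals were 6.34 to 10.9 CPM and 6.01 to 10.1 CPM. None of the 4 lower intervals reached these. A floor of 3 counts corresponded to 0.358 to 0.450 CPM, and EV replicate 2 and NFIB ΔIDR replicate 2 were at or under it. These intervals and floors cover counting error only. Whether the counting collapsed PCR copies was not stated, so counts may not be independent molecules.

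Per length, SELENBP1 ranked higher among all genes with NFIB WT than in the other groups. Its level per kb was 0.487 and 0.183 CPM with EV, 4.28 and 4.0 CPM with NFIB WT, and 0.276 and 0.150 CPM with NFIB ΔIDR. Of all genes in the table, 38.2% and 30.6% had a lower level per kb in the EV libraries, 31.7% and 26.3% in the NFIB ΔIDR libraries, and 62% and 61% in the NFIB WT libraries. Among the tested genes alone, 4.97% and 0.963% had a lower level per kb in the EV libraries, and 1.33% and 0.326% in the NFIB ΔIDR libraries. In the NFIB WT libraries the shares were 37.7% and 36.0%. The filter on low counts kept SELENBP1 through its NFIB WT libraries, since every other library had under 10 counts. In bulk RNA, more cells with SELENBP1 RNA and more of it per cell cannot be told apart.

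Between the constructs, the contrast by which it was chosen, SELENBP1 had a log2 fold change of 4.21 (SE 0.40) for NFIB WT against NFIB ΔIDR in edgeR's fit. This was an 18.5-fold higher fitted level with NFIB WT, and the largest log2 fold change of the 13501 tested genes. The next in that order were FAM212B at 3.57 (SE 0.59), ISLR at 3.45 (SE 0.61) and SULT1E1 at 3.24 (SE 0.41). By counts alone, 117 against 6, the depth-scaled ratio was 19.1 with an exact 95% interval of 8.53 to 53.2. The lowest ratio between a library of each group was 14.5 and the highest was 28.4. Over all tested genes, 5.52% passed as higher with NFIB WT (adjusted p under 0.05), given as background, and nothing about SELENBP1 is read from it.

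SELENBP1 rose with NFIB WT against EV. The log2 fold change was 3.63 (SE 0.36), a 12.4-fold higher fitted level, with an adjusted p of 0.00152 from edgeR's quasi-likelihood test with Benjamini-Hochberg adjustment over all genes tested. In this contrast 0.452% of tested genes passed as higher. FAM212B had a larger log2 fold change, 3.71, and MGP followed SELENBP1 at 2.84. By counts, 117 against 10, the ratio was 12.7 (exact 95% interval 6.68 to 27.2), and it was at least 8.22 between any pair of libraries. The contrast shares the NFIB WT libraries with the one that chose the gene, so its p is not independent of that choice. The size rested on the few EV counts: it was 21.7-fold without EV replicate 1 (log2 fold change 4.44, adjusted p = 0.0159 from edgeR) and 8.38-fold without EV replicate 2 (3.07, adjusted p = 0.0395 from edgeR). In these fits the lone EV library was taken to vary like the other groups.

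With NFIB ΔIDR against EV, no difference in SELENBP1 was detectable at this depth. The fitted log2 fold change of -0.57 had an SE of 0.69 and an adjusted p of 0.76 in edgeR's test, against 0.296% of tested genes called higher and 0.356% called lower. The ratio by counts, 6 against 10, was 0.665 with an exact 95% interval of 0.199 to 2.02, so neither a 2-fold rise nor a fall to 0.199 of the EV level lies outside the counting error. The direction was not stable, since without EV replicate 1 the log2 fold change was 0.23. This contrast shares the EV libraries with that of NFIB WT, and the NFIB ΔIDR libraries with the contrast that chose the gene.

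**Figure D2:**
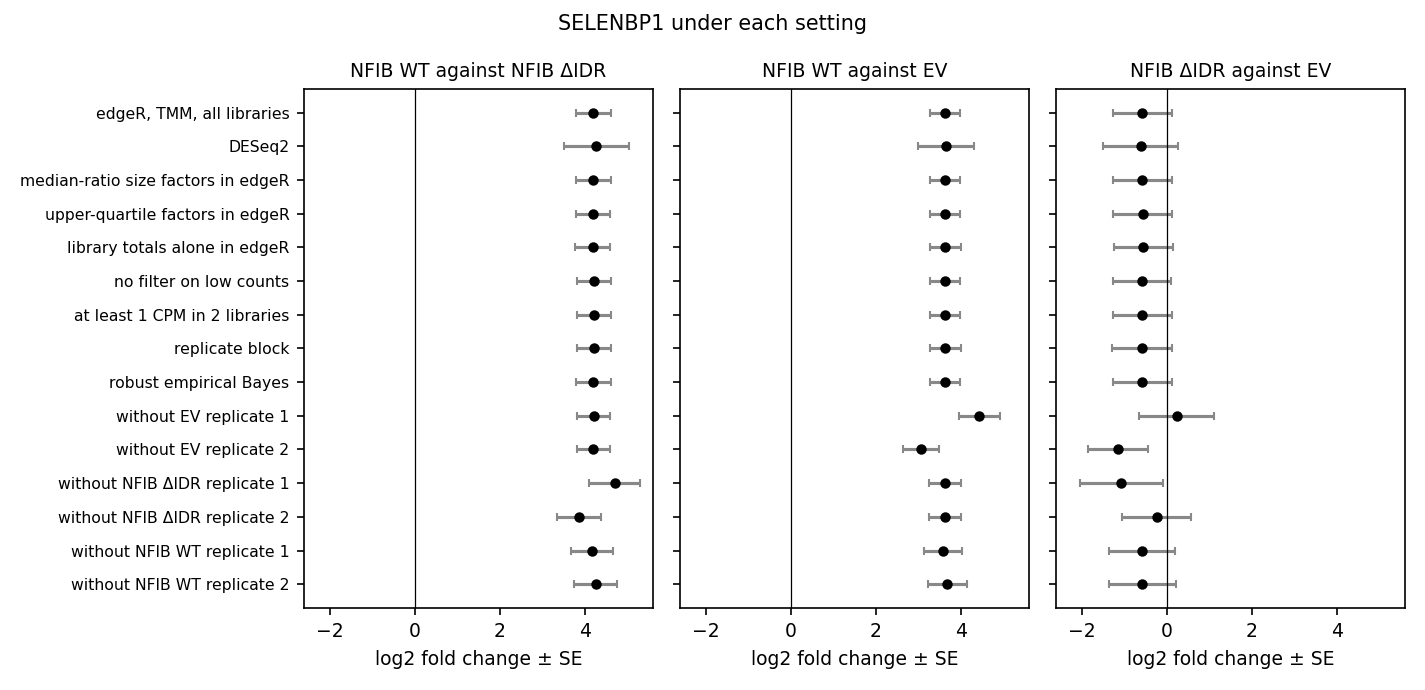
Log2 fold change of SELENBP1 with its SE (horizontal axis) in the 3 contrasts, one panel each, by processing setting (vertical axis). Fits of the compared groups alone are not drawn. The values lie between 3.07 and 4.70 in the left and middle panels, and between -1.14 and 0.23 in the right panel.

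A further contrast set EV against the midpoint of both constructs on the log scale. It shares the NFIB WT and NFIB ΔIDR libraries with the contrast that chose the gene, so it is not independent of that choice. SELENBP1 with EV lay below that midpoint by a log2 value of -1.53 (SE 0.52), but did not pass with an adjusted p of 0.498 from edgeR, and its unadjusted p in that fit was 0.0140. Here 8.14% of tested genes had an unadjusted p under 0.05, and 0.00741% passed as lower at an adjusted p under 0.05.

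SELENBP1 RNA and NFIB RNA were highest in different groups. The mean NFIB level was 2280 ± 74.2 CPM (SD, n = 2) with NFIB ΔIDR and 1010 ± 58.1 CPM with NFIB WT, next to 160.1 ± 22.0 CPM with EV. The group with the most NFIB RNA thus had a SELENBP1 level far below that of NFIB WT, and one that could not be told apart from EV. SELENBP1 was chosen by its difference between the constructs, so this mismatch is drawn from that choice. A relation to the amount of NFIB was not tested. Reads of the cells' own NFIB and of the construct were counted together, and protein was not measured in these data.

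Genes near SELENBP1 were compared in the same contrasts. Of 37 other genes of the table within 500 kb, 27 were tested. With NFIB WT against EV none passed in edgeR's test at an adjusted p under 0.05. Of all tested genes, 0.452% were called higher and 0.163% lower, so none among 27 is near those shares. An unadjusted p under 0.05 was found for 3 of the 27, next to 13.4% of all tested genes. TUFT1, PSMB4 and CERS2 had the smallest adjusted p (edgeR, 0.261 to 0.271). All were higher with NFIB WT, with log2 fold changes of 0.77, 0.25 and 0.30. With NFIB ΔIDR against EV none passed either, next to 0.296% of all tested genes called higher and 0.356% called lower. In that contrast 5 had an unadjusted p under 0.05, next to 15.2% of all tested genes. DESeq2 called none in both contrasts. Against EV, their median log2 fold change with NFIB WT was -0.03, next to 0.00 over all tested genes, and the range was -0.72 for CELF3 to 0.77 for TUFT1.
PSMB4, a subunit of the proteasome and the nearest tested gene on the 5′ side, was at 134 and 135 CPM with EV, 167 and 152 CPM with NFIB WT, and 127 and 128 CPM with NFIB ΔIDR. Its log2 fold change with NFIB WT against EV was 0.25 with an SE of 0.09 (edgeR, adjusted p = 0.269). POGZ and CGN lie beyond it, with log2 fold changes of -0.15 and 0.05. On the 3′ side, RFX5, an activator of MHC class II genes, was at 63.2 and 64.1 CPM with EV, 66.3 and 63.9 CPM with NFIB WT, and 60.5 and 64.5 CPM with NFIB ΔIDR. PI4KB and ZNF687, the next tested genes on that side, had log2 fold changes of 0.05 and 0.15 with NFIB WT against EV. In the contrast of the constructs, PSMB4 and MLLT11 passed as higher with NFIB WT and GABPB2 as lower. These are 3 of the 27, next to 5.52% and 5.19% of all tested genes, and are named here because the count is small. Their log2 fold changes were 0.32, 0.51 and -0.57. DESeq2 called MLLT11 alone, with an adjusted p of 0.102 for PSMB4 and 0.0573 for GABPB2. PSMB4 also did not pass in edgeR with library totals alone (adjusted p = 0.0548). Whether these 3 genes passed in edgeR depended on the libraries kept. When a library was left out, the log2 fold change was 0.25 to 0.39 for PSMB4, 0.41 to 0.62 for MLLT11 and -0.60 to -0.54 for GABPB2.

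**Figure D3:**
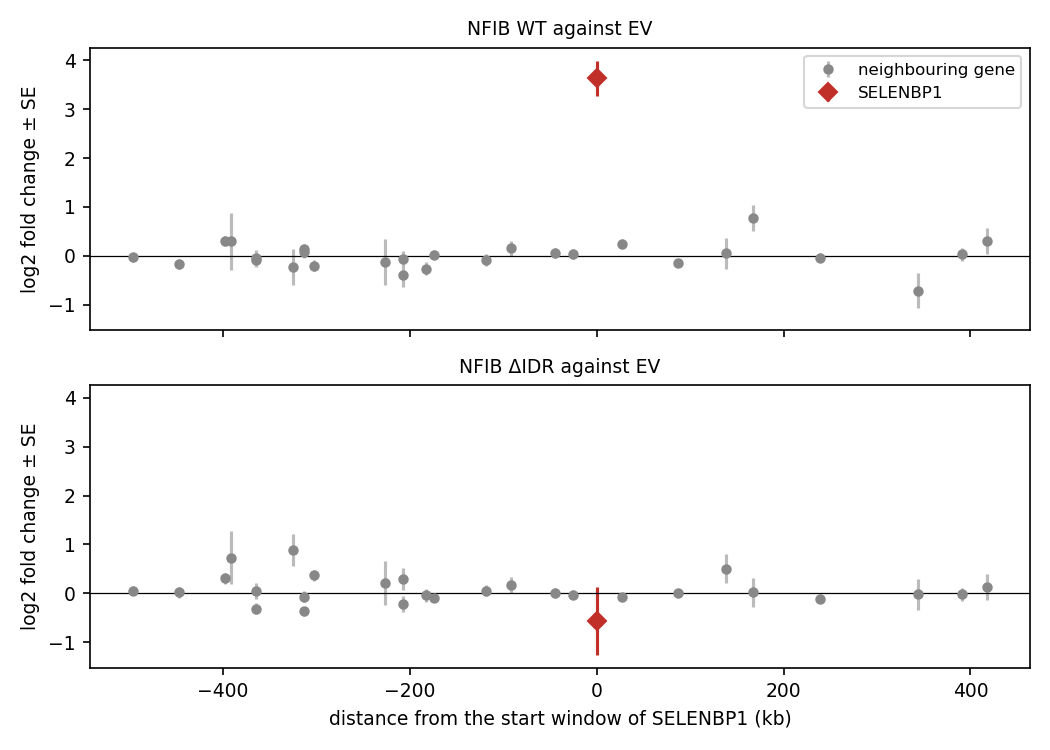
Log2 fold change with its SE (vertical axis) against the distance from the start window of SELENBP1 in kb (horizontal axis), for SELENBP1 (red) and the 27 tested genes within 500 kb (grey). Negative distances are on the 3′ side. SELENBP1 stands at 3.63 with NFIB WT against EV (top), where the neighbours lie between -0.72 and 0.77, and at -0.57 with NFIB ΔIDR against EV (bottom).

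The genes whose levels over the 6 libraries were most like those of SELENBP1 were MGP, SULT1E1, DNASE1L3, ISLR, EPHB2 and FAM212B. Likeness was the distance between log2 CPM values after each gene was centred on its own mean, and it is a description over 6 libraries that fall into 3 groups. Closest was MGP, an extracellular inhibitor of calcification, at a distance of 0.852 and with a Pearson r of 0.99. SULT1E1, which sulfates estrogens, followed at 1.58, and FAM212B, the last of these genes, was at 2.17.
MGP was at 2.59 and 2.03 CPM with EV, 15.6 and 17.5 CPM with NFIB WT, and 2.44 and 1.33 CPM with NFIB ΔIDR. SULT1E1 was at 1.23 and 1.08 CPM, 5.55 and 4.12 CPM, and 0.541 and 0.443 CPM in the same groups. DNASE1L3, a secreted nuclease, was at 1.77 and 0.597 CPM, 3.6 and 6.05 CPM, and 0.812 and 0.738 CPM. All 6 genes had both NFIB WT libraries above the other 4, as the choice of genes by likeness would give. With NFIB ΔIDR against EV, SULT1E1 and ISLR had log2 fold changes of -1.19 (SE 0.55) and -1.60 (SE 0.80), and FAM212B one of 0.14 (SE 1.03).

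**Figure D4:**
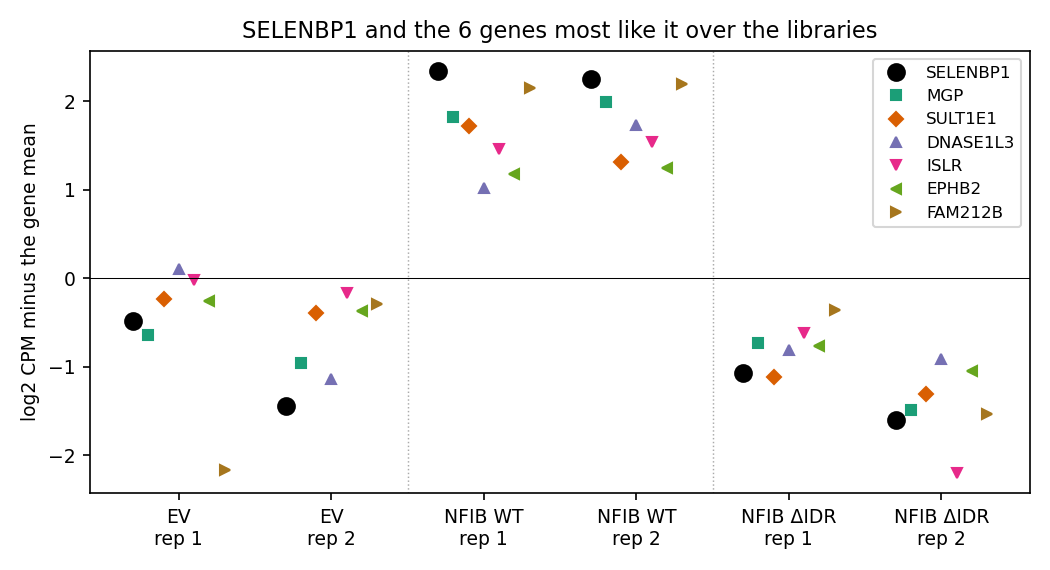
Log2 CPM minus the mean of the gene over the 6 libraries (vertical axis), for SELENBP1 (black) and the 6 genes most like it, by library (horizontal axis). All 7 genes are above their mean in both NFIB WT libraries, and SELENBP1 is lowest in NFIB ΔIDR replicate 2.

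Of the listed genes that make, share or clear the substrate and products of SELENBP1, or handle selenium, METTL7A, LRP8 and ALDH1A1 passed against EV. Of 26 listed genes of sulfide and thiol metabolism, 22 were tested, and METTL7A, a methyltransferase of thiols, passed in both contrasts with EV. It was the 1 gene of the 22 called higher with NFIB WT and the 1 called lower with NFIB ΔIDR, next to 0.452% and 0.356% of all tested genes. An unadjusted p under 0.05 was found for 2 and 6 of the 22, next to 13.4% and 15.2% of all tested genes. METTL7A was at 22.5 and 17.9 CPM with EV, 44.8 and 36.6 CPM with NFIB WT, and 9.20 and 6.35 CPM with NFIB ΔIDR. It thus rose with NFIB WT (edgeR, adjusted p = 0.0253), by a log2 fold change of 1.01 with an SE of 0.16, and fell with NFIB ΔIDR (edgeR, adjusted p = 0.0201), where the value was -1.36 with an SE of 0.21. The list had a median log2 fold change of -0.01 for NFIB WT and of -0.09 for NFIB ΔIDR against EV, next to 0.00 over all tested genes in both.
MAT2A, which makes the methyl donor S-adenosylmethionine and had the most CPM of the list, was at 453 and 474 CPM with EV, 573 and 485 CPM with NFIB WT, and 395 and 420 CPM with NFIB ΔIDR. It did not pass in either contrast with EV (adjusted p = 0.407 and 0.387 from edgeR). In the contrast of the constructs, 5 of the 22 were higher with NFIB WT and none was lower in edgeR, against 5.52% and 5.19% of all tested genes. An unadjusted p under 0.05 was found for 9 of the 22, next to 27.5% of all tested genes. DESeq2 called 4 of the 22, and over the 13401 genes that it adjusted it called 430 higher and 295 lower. The 5 called in edgeR were METTL7A, MPST, TXN, MAT2A and AHCY, named here because the count is small. MPST, which makes hydrogen sulfide from mercaptopyruvate, was at 1.77 and 1.67 CPM with EV, 1.80 and 2.06 CPM with NFIB WT, and 0.541 and 0.295 CPM with NFIB ΔIDR. Its low libraries were thus those with NFIB ΔIDR, where those of SELENBP1 were low with EV as well. These low values of MPST are near the floor of 3 counts. Of the 5 genes, MPST was the 1 that DESeq2 did not call between the constructs (adjusted p = 0.159). Apart from METTL7A, whether they passed in edgeR depended on the libraries kept. When a library was left out, the log2 fold change was 1.81 to 2.65 for MPST and 0.36 to 0.55 for TXN. It was 0.25 to 0.49 for MAT2A and 0.54 to 0.61 for AHCY.

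Of 25 selenoprotein genes, 19 were tested, and none passed in either contrast with EV. Calls were rare among all tested genes too. For NFIB WT the shares were 0.452% higher and 0.163% lower than EV. For NFIB ΔIDR they were 0.296% and 0.356%, so none among 19 is near those shares. In both contrasts, 1 had an unadjusted p under 0.05 in edgeR's test, next to 13.4% and 15.2% of all tested genes. DESeq2 called none in either contrast. TXNRD1, the cytosolic thioredoxin reductase, had the most CPM of them, at 517 and 526 CPM with EV, 555 and 552 CPM with NFIB WT, and 524 and 537 CPM with NFIB ΔIDR. With NFIB WT against NFIB ΔIDR, 2 of the 19 passed as higher, SEPP1 and SEPW1, next to 5.52% of all tested genes. DESeq2 called SEPP1 alone, and neither passed in edgeR when any 1 of the EV or NFIB ΔIDR libraries was left out (adjusted p from 0.0608 to 0.289).

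Of 14 genes of selenium uptake and selenocysteine synthesis, 13 were tested, and LRP8, a receptor that takes up selenoprotein P, fell with NFIB ΔIDR. It was at 80.7 and 80.5 CPM with EV, 81.3 and 78.0 CPM with NFIB WT, and 52.5 and 54.2 CPM with NFIB ΔIDR. Against EV this was a log2 fold change of -0.60 with an SE of 0.09 (edgeR, adjusted p = 0.0222). LRP8 was the 1 gene of the 13 called there, next to 0.356% of all tested genes called lower. RPL30, a ribosomal protein that also binds selenoprotein mRNAs and had the most CPM of this list, had log2 fold changes of 0.03 and -0.12 with NFIB WT and NFIB ΔIDR against EV. None of the 13 passed with NFIB WT against EV, next to 0.452% of all tested genes called higher and 0.163% called lower. In that contrast 1 had an unadjusted p under 0.05 in edgeR's test, next to 13.4% of all tested genes, and DESeq2 called none. Between the constructs LRP8 was the 1 gene called, higher with NFIB WT by a log2 fold change of 0.58 (edgeR, adjusted p = 0.00469), next to 5.52% of all tested genes, and it did not pass without either NFIB ΔIDR library (edgeR, adjusted p = 0.0973 and 0.0781).

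All 27 listed genes for the clearance of hydrogen peroxide and formaldehyde were tested, some of which are also on the lists above. With NFIB WT against EV none passed in edgeR's test, next to 0.452% of all tested genes called higher and 0.163% called lower. None had an unadjusted p under 0.05, next to 13.4% of all tested genes, and DESeq2 called none. The log2 fold changes ran from -0.21 to 0.27. With NFIB ΔIDR against EV, ALDH1A1, an aldehyde dehydrogenase that makes retinoic acid, rose from 12.6 and 14.3 CPM to 23.8 and 22.1 CPM, a log2 fold change of 0.77 with an SE of 0.14 (edgeR, adjusted p = 0.0325). It was at 14.2 and 14.0 CPM with NFIB WT. DESeq2 did not call it (adjusted p = 0.121). In edgeR it was the 1 gene of the 27 called with NFIB ΔIDR against EV, next to 0.296% of all tested genes called higher. In that contrast 6 of the 27 had an unadjusted p under 0.05, next to 15.2% of all tested genes. Between the constructs, 4 of them passed as higher with NFIB WT and 3 as lower, next to 5.52% and 5.19% of all tested genes. DESeq2 called 4 of the 27 in all, next to 430 higher and 295 lower over the 13401 genes that it adjusted. The calls of METTL7A, LRP8 and ALDH1A1 against EV did not pass when any 1 of the EV or NFIB ΔIDR libraries was left out (edgeR, adjusted p from 0.0792 to 0.393).

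**Figure D5:**
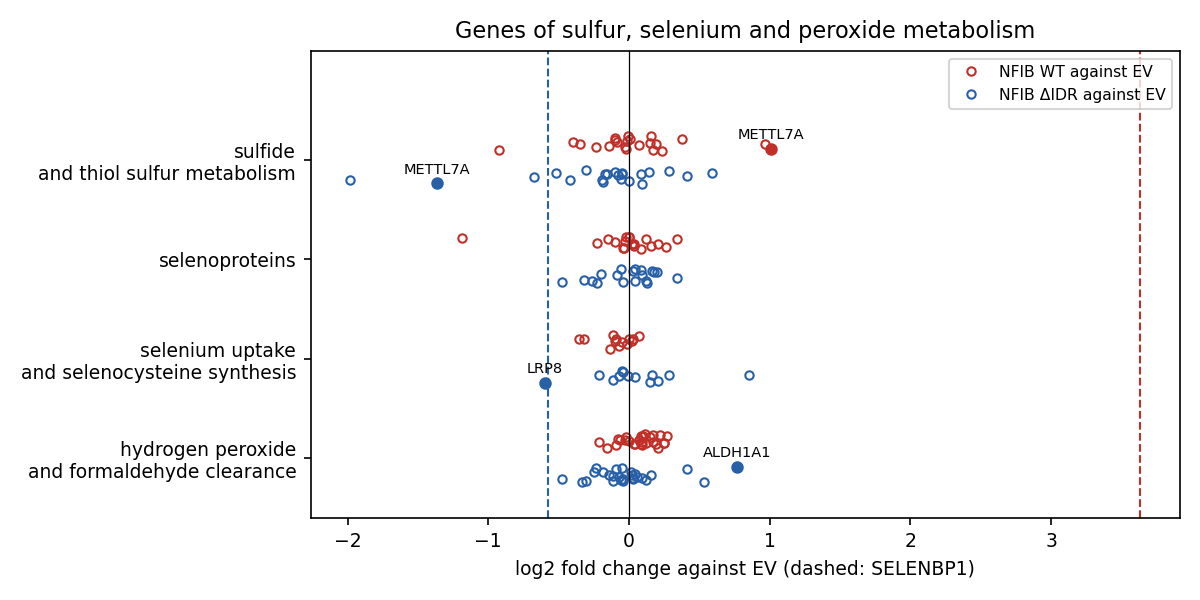
Log2 fold change against EV (horizontal axis) of the tested genes of 4 lists (vertical axis), with NFIB WT (red) and NFIB ΔIDR (blue). Filled, named points passed at an adjusted p under 0.05, and dashed lines mark SELENBP1, at 3.63 and -0.57. No listed gene is above 1.01 with NFIB WT.

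Markers of the cell types in which SELENBP1 is known to be abundant were low throughout. Summed levels of 5 colonocyte markers were 3.35 to 5.19 CPM with EV, 4.25 to 4.65 CPM with NFIB WT and 6.79 to 7.44 CPM with NFIB ΔIDR. The 3 hepatocyte markers in the table summed to at most 0.682 CPM, the 3 erythroid markers to at most 0.836 CPM and the 4 adipocyte markers to at most 1.49 CPM in any library. None of these was highest in the NFIB WT libraries. Of the epithelial markers, 6 of 7 were in the table and summed to 185 to 264 CPM with NFIB WT, next to 210 to 247 CPM with EV and 294 to 340 CPM with NFIB ΔIDR, nearly all of it KRT18. The 5 fibroblast markers, all with means above 1 CPM, summed to 380 to 385 CPM with NFIB WT, 247 to 265 CPM with EV and 240 to 245 CPM with NFIB ΔIDR. DCN, LUM and COL3A1 carried that sum and had their highest levels with NFIB WT, as SELENBP1 did, with DCN at 152 and 142 CPM there against 86.0 and 90.1 CPM with EV. COL1A1 and PDGFRA went the other way, with PDGFRA at 1.5 and 1.03 CPM with NFIB WT, 2.05 and 2.75 CPM with EV, and 4.6 and 5.17 CPM with NFIB ΔIDR. The part of these cell type markers in the result was not tested.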

How the data were processed

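RNA-seq libraries of SKNMC cells were made from total RNA with the CORALL kit. Per the labels, the authors converted reads with CASAVA 2.19, aligned them to hg19 with STAR 2.4.0h and deposited raw counts per RefSeq gene from featureCounts, without normalization. The sources used here do not state strand, multi-mapping or molecular identifier settings. The deposited start and end bound a window around one start site, 151344210 to 151346210 for SELENBP1.

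A gene was tested where filterByExpr kept it (minimum count 10, with a minimum total of 15). TMM factors and the quasi-likelihood test came from edgeR 4.0.16 (R 4.3.3), with all 6 libraries in one fit, and p values were adjusted by Benjamini-Hochberg over 13501 genes. The code was tested on simulated data. Likeness used log2 CPM with a prior count of 2. Intervals are exact at 95% (SciPy 1.17.1). DESeq2 1.42.0, other scalings, filters and fits, and leaving out libraries were alternatives. Figures used matplotlib 3.10.9.

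The gene, lists and tests were chosen with earlier results of these data known. Lists came from textbook knowledge. Named by rule were NFIB, the 6 genes most like SELENBP1, the 3 next to it by log2 fold change, the 3 nearest tested genes on each side, and list members that passed against EV (up to 6) or had the most CPM. The promoter motifs and sequence of SELENBP1 were not analysed here.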

Additional observations from a re-analysis of the deposited data

How the results depend on the processing

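SELENBP1 passed with NFIB WT against EV under other tools, scalings, filters and fits, with log2 fold changes of 3.63 to 3.66 (adjusted p up to 0.0129, in edgeR on these groups alone). The log2 fold change was 3.07 to 4.44 when a library was left out. Every alternative reused NFIB WT libraries by which the gene was chosen, so none of them is independent of that choice. Against NFIB ΔIDR the log2 fold change was 3.87 to 4.70 when a library was left out, the highest without NFIB ΔIDR replicate 1, and 4.19 to 4.27 otherwise. With NFIB ΔIDR against EV it was -1.14 to 0.23 when a library was left out, changing sign without EV replicate 1 (0.23, adjusted p = 0.972 from edgeR), and DESeq2 gave no adjusted p. In a fit of EV and NFIB ΔIDR alone SELENBP1 did not pass the filter. EV against the midpoint of the constructs gave -2.34 to -0.96 when a library was left out and did not pass under any alternative run (adjusted p from 0.0668 up in edgeR and DESeq2). The labels do not say whether the replicate numbers pair the libraries. Deviations of same-numbered libraries correlated at 0.153, 0.0156 and 0.0539 across genes. With a replicate block the log2 fold changes were 4.22, 3.64 and -0.59, and -1.53 for the midpoint, and no call of SELENBP1 changed, while genes called higher with NFIB WT against EV went from 61 to 126. Numbers of genes called moved far more than SELENBP1 did: with NFIB WT against EV, 8 to 1518 were higher over all alternatives, the extremes without an EV library and without NFIB WT replicate 2, and 40 in NFIB ΔIDR against EV became 2 to 892 and 745 between the constructs 67 to 2229. Of the list counts, recomputed under DESeq2 and other scalings only, 3 moved by over 1.5 times, all under DESeq2. Most of the others were 0, and the counts were not redone with libraries left out. Ranking by Pearson correlation kept 1 of the 6 genes most like SELENBP1, MGP. With 2 to 7 counts in 4 libraries, depth limits the EV and NFIB ΔIDR levels.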
